A study of Mus musculus with 8 samples.

Results

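The 8 genes Lck, Fyn, Zap70, Txk, Prkcq, Lat, Lcp2 and Themis encode kinases and adaptors that act directly behind the T cell receptor. They were chosen by name, with earlier results of these data known, and each was taken with 10 kb on either side. They are 8 of the 21755 protein-coding genes annotated on the autosomes and the X chromosome. DNA methylation was read by whole-genome bisulfite sequencing in splenic lymphocytes of C57BL/6J mice of 6 to 8 weeks. The 4 groups were B and T cells of females and of males, where B cells are CD43- (resting) and T cells are naive CD4+ CD62L+ cells sorted as CD62Lhi CD44lo CD25-. Cells of several animals were pooled for a sample. Each group has 2 samples but 1 methylation file, and whether that file merges both samples is not stated, so a group contributes 1 value, each cell type 2 values, and no spread within a group can be given. No gene expression was analysed.

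When an antigen is recognised, Lck bound to the coreceptor phosphorylates the tails of the CD3 chains, Zap70 docks there and phosphorylates the scaffolds Lat and Lcp2 (SLP-76), and Prkcq (PKC-theta) carries the signal towards NF-kappaB. B cells use a parallel set of proteins behind their own receptor. Methylation of the CpG sites at a promoter or enhancer generally accompanies a silent element, and its absence an accessible one. A methylation level is the percentage of reads at a CpG that were read as methylated. Bisulfite reads 5-methylcytosine and 5-hydroxymethylcytosine alike. Part of each sample was also oxidised, which leaves 5-methylcytosine alone to be read; the files were taken as plain bisulfite from their names, and no other source used here says which treatment they hold. In a population of cells, a level of intermediate size does not tell fewer methylated cells from fewer methylated alleles per cell.

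Of the 8573 CpGs that the reference holds in the 8 regions, 8099 (94.5%) had 5 or more reads in all 4 files, with a mean depth of 12.6 to 20.2 reads per CpG by gene and file. Genome-wide mean depth was 14.6 reads per CpG in female B, 17.7 in female T, 16.1 in male B and 17.3 in male T cells, so the B files were the shallower ones. The labels were checked on promoters of cell type markers. Of 7 T cell marker promoters 4 were called less methylated in T than in B cells and none the other way, and of 7 B cell marker promoters 6 were called less methylated in B cells and none the other way. By the same rule, given below, 0.484% of all promoters were called higher and 0.432% lower in B cells. The promoters of the natural killer (2), myeloid (3) and erythroid (2) markers gave no call, with medians of B minus T of -1.31, -3.39 and -2.88 points. The myeloid marker Lyz2 came nearest to a call, at 41.5% and 50.7% in the B files and 64.1% and 66.7% in the T files (B minus T of -19.3 points, adjusted p = 0.0436, quasi-binomial test). The other myeloid markers, Csf1r and Itgam, differed by -3.39 and 4.79 points. Both promoters of the cytotoxic markers Cd8a and Cd8b1 were called lower in T cells, at 38.5 to 70.9% in the T files against 89.5 to 90.3% in the B files, and 1 of 2 regulatory T cell markers, Il2ra, was called lower in T cells, although the sort removes both kinds of cell. The part of such cells in the results below was not tested.

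The genes differed in the methylation of single CpGs at their starts, and so the reference sequence (GRCm38) up to the first 30 transcribed bases is given for 5 of them. All are written 5′ to 3′ on the strand of the gene, with each CpG in capitals.
Zap70, chr1:36761548-36761827, plus strand: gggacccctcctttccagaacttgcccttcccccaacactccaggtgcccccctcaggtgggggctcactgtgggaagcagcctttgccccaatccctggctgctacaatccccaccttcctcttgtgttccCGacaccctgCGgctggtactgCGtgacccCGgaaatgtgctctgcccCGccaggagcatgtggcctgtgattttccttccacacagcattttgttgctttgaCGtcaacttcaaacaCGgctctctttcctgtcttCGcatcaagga
Themis, chr10:28668230-28668389, plus strand: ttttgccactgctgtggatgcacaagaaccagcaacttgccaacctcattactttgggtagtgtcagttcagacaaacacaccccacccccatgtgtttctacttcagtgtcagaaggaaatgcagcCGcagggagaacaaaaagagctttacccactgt
Lck (distal start), chr4:129573612-129573891, minus strand: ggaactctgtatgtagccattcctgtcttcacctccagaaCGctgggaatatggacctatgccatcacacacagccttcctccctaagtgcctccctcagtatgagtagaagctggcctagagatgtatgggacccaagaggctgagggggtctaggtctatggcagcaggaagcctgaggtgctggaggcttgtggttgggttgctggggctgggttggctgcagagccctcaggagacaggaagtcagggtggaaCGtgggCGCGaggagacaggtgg
Txk, chr5:72752748-72753027, minus strand: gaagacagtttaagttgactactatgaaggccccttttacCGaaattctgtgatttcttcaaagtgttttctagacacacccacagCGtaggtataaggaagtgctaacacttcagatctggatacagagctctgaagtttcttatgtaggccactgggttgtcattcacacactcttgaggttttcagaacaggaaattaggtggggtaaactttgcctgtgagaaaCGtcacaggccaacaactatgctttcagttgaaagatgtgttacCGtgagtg
Prkcq, chr2:11171958-11172137, plus strand: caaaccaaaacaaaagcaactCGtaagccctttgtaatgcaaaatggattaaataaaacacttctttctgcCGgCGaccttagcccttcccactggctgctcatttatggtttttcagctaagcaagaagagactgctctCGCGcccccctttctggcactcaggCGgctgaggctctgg
The 8 CpGs printed for Zap70 were methylated at 48.5 to 97.1% in B cells (reads of both sexes summed), with the lowest value 15 bases before the start, and at 0 in T cells, where the reads of a single CpG allow up to 5.45 to 7.14% and those of all 8 up to 0.769%. The single CpG of the Themis stretch, 3 bases before the start, stood at 63.6% in B and 0 in T cells (up to 5.77% allowed by 52 reads). In Lck the CpG 209 bases before the start stood at 96.3% in B and 44.8% in T cells, whereas the 3 CpGs inside the first exon were at 0 in B cells, where 25 to 27 reads allow up to 11.1 to 12%, and at 0 to 1.96% in T cells. The 4 CpGs of Txk lay between 5.26 and 38.7% in B cells and at 0 in T cells, which allows up to 6.67 to 8.11% at a CpG. The 6 CpGs of Prkcq did not exceed 4% in either cell type. Those at 0 had 19 to 31 reads in B cells, which allow up to 9.68 to 15.8%, and in T cells up to 5.77 to 7.69% is allowed.

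Promoters were taken as 1 kb on each side of the first annotated start. For 4 of 8 genes (Lck, Zap70, Themis and Txk) the promoter was called higher in B than in T cells, and none was called lower. A call required an adjusted p under 0.05 in a quasi-binomial test, adjusted over 21082 promoters, and B and T cells 20 points or more apart on average; by the same rule 0.915% of all promoters were called in either direction and 0.484% were called higher in B cells. The median difference of the 8 promoters was 25.3 points, against 0.147 points over all promoters.

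**Figure D1:**
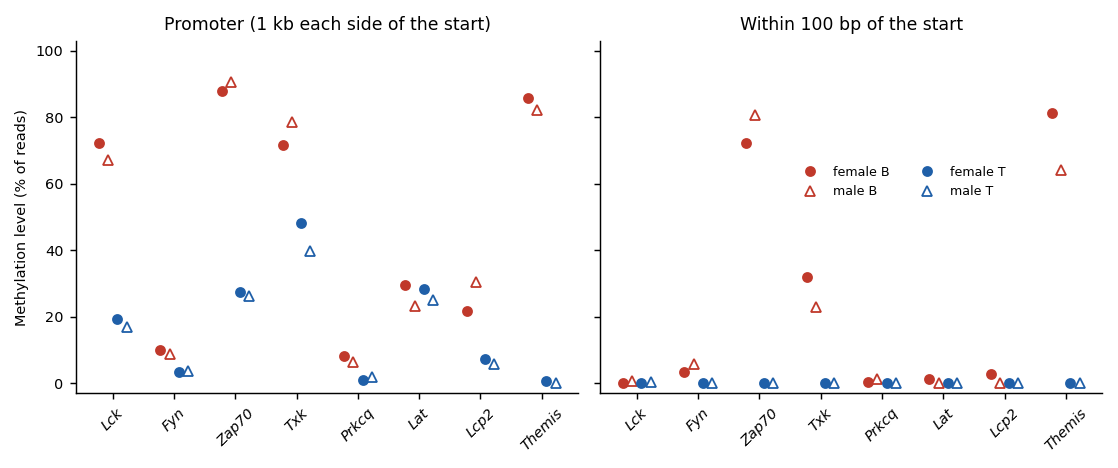
Methylation level (percent of reads, vertical axis) of the 8 genes in each of the 4 files, in the promoter of 1 kb each side of the first start (left) and within 100 bp of the start (right; for Lcp2 the second start, since no CpG lies that near the first). Each point is 1 file, red for B and blue for T cells, filled circles for female and open triangles for male. In the narrow window Zap70 and Themis kept 64.1% or more in the B files, while both B files of Lck stood under 1%.

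Themis (chr10:28668360-28883818, plus strand), a T-lineage protein needed for thymocyte selection, had the largest promoter difference. Its level was 85.8% in female B and 82.3% in male B cells against 0.699% in female T and 0 in male T cells (up to 2.65% allowed), over 7 CpGs (adjusted p = 2.13e-05, quasi-binomial test). Zap70 (chr1:36761798-36782818, plus strand), the kinase that binds the phosphorylated receptor, stood at 87.8% and 90.7% in female and male B cells and at 27.6% and 26.3% in T cells over 37 CpGs (adjusted p = 1.35e-06, quasi-binomial test). The B and T files did not overlap at either gene, but there are only 2 per cell type, and the share of all promoters without overlap was not counted.

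Lck (chr4:129548344-129573641, minus strand), the Src-family kinase that starts the cascade, stood at 72.1% in female B and 67.0% in male B cells, and at 19.2% and 16.9% in the T files over the 35 CpGs of its distal promoter (adjusted p = 7.30e-06, quasi-binomial test). Txk (chr5:72695978-72752777, minus strand), a Tec-family kinase, showed the smallest called difference, at 71.7% and 78.4% in the B files and 48.3% and 39.9% in the T files over 19 CpGs (adjusted p = 0.00446, quasi-binomial test). The Txk promoter was not called when any of the 4 files was left out (differences of 26.8 to 35.1 points, adjusted p 0.125 to 0.299), with limma on log2 ratios (adjusted p = 0.0547), or when each CpG needed 10 reads, where the difference was 16.9 points.

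The other 4 promoters were not called. Lcp2 (chr11:34046920-34092295, plus strand) came nearest, at 21.7% in female B and 30.5% in male B cells, and at 7.37% and 5.77% in the T files, a mean difference of 19.5 points that passed the test (adjusted p = 0.00851, quasi-binomial test) and fell just short of the 20 points. The Lcp2 difference was 5.86 points with 500 bp on each side (adjusted p = 0.0622), and its adjusted p was 0.0661 without the sex term and 0.113 to 0.380 with any file left out, at 15.1 to 24.0 points (all quasi-binomial tests). Fyn (chr10:39368855-39565381, plus strand), the other Src-family kinase of the receptor, stood at 10.0% and 8.92% in the B files and 3.54% and 3.88% in the T files. Prkcq (chr2:11172108-11301222, plus strand) stood at 8.36% and 6.32% in the B files and 1.03% and 1.96% in the T files. Lat (chr7:126363824-126369570, minus strand), the transmembrane scaffold, stood at 29.5% and 23.2% in B cells and 28.4% and 25.1% in T cells, with overlapping B and T files. The 95% Wilson intervals of these promoter levels reached at most 6.69 points to either side and cover counting error only.

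Within 100 bp of the start the picture was narrower. Of the 18 annotated starts of these genes with a CpG that near, 3 had 50% or more in B and under 10% in T cells, namely Zap70 and both starts of Themis, as did 0.19% of the 35823 such starts of all protein-coding genes. Zap70 stood at 72.3% in female B and 80.7% in male B cells and at 0 in both T files, over 7 CpGs, where 0 of 170 and 0 of 165 reads allow up to 1.76% and 1.82%. The first start of Themis stood at 81.2% and 64.1% in the B files and 0 in the T files, over 2 CpGs, where 63 and 40 reads allow up to 4.76% and 7.5%. By contrast, the 7 CpGs within 100 bp of the distal Lck start were at 0 (up to 3.53% allowed) and 0.806% in the B files and 0 (up to 1.99%) and 0.472% in the T files. The methylation of the Lck promoter in B cells lay on either side of these CpGs. A run of 7 CpGs centred at -277 bases from the start stood at 96.1% and 94.3% in the B files and 20% and 24% in the T files, and a run of 9 CpGs centred at +465 stood at 96.9% and 93.8% in the B files and 18.8% and 17.9% in the T files. Txk lay between, at 32.1% and 22.9% in the B files and 0 in the T files over 3 CpGs, where 56 and 60 reads allow up to 5.36% and 5%.

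**Figure D2:**
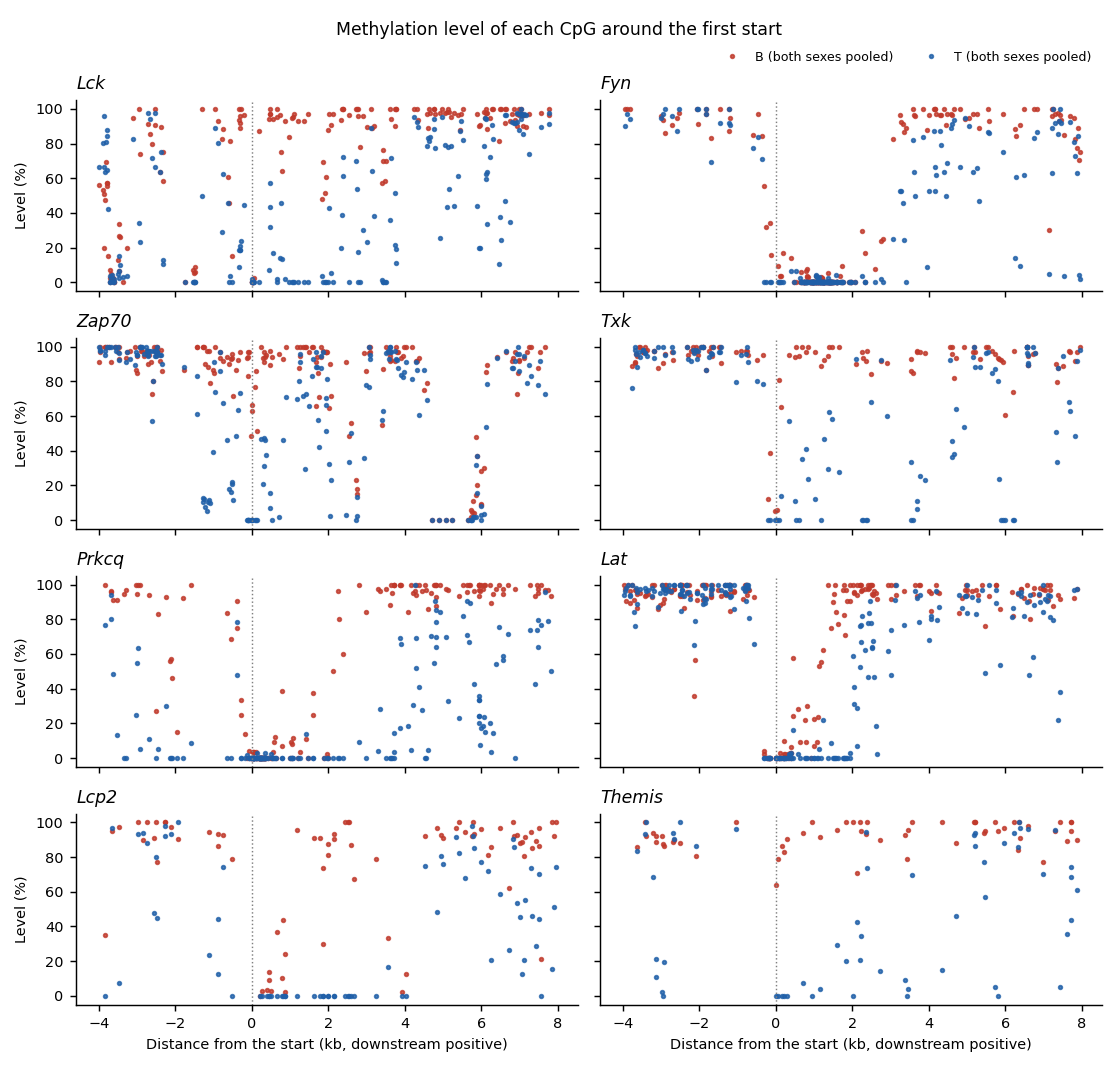
Methylation level of each CpG (percent, vertical axis; reads of both sexes summed) against distance from the first annotated start in kb (horizontal axis, downstream positive, start dotted), red for B and blue for T cells. In most panels blue points stay near 0 further downstream than red ones, with little difference for Fyn; for Lck a cluster of CpGs at the start is near 0 in both.

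Several genes have more than 1 annotated start, and these did not behave alike. Each start was taken with 500 bp on either side. Of the 19 starts 5 were called, all higher in B cells, where 2.01% of 37577 starts were called (1.02% higher and 0.995% lower in B cells). They were the distal Lck start, the first Zap70 start, both Themis starts and the upstream Txk start. The 2 Themis starts lie 273 bp apart, so their windows share most CpGs. Windows of the Lcp2 starts and of some Fyn starts overlap too, so the 19 are not independent. The proximal Lck start, which is known for its use in immature thymocytes, stood at 13.2% in female B and 21.3% in male B cells, and at 1.63% and 0.840% in the T files, and was not called at a difference of 16.1 points. Without the female B file its difference was 20.1 points and it was called. The internal Zap70 start, 5136 bp into the gene, held no methylated read in any file, with 65 to 96 reads a file, which allows up to 4.62% in the shallowest.

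Fyn has 6 starts, and they spanned the whole scale. The first, Fyn-208, stood at 29.5% and 27.3% in the B files and 10.4% and 13.0% in the T files, a difference of 16.7 points that was not called, against 5.77 points in the promoter of 1 kb on each side. The start within its CpG-dense region (90 CpGs in 1 kb) stood at 0.119 to 0.785% in all 4 files. The 3 most downstream starts stood at 93.0 to 97.3% in all 4 files, with B and T cells within 3.29 points of each other. The start in between, Fyn-209, stood at 88.6% and 94.0% in the B files and 76.7% and 72.1% in the T files, a difference of 16.9 points that was not called. The internal Prkcq start was the only one of the 19 with a lower mean in B cells, at 56.3% and 49.6% against 69.3% and 72.8% in T cells, and it was not called (adjusted p = 0.0674, quasi-binomial test).

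Calls at starts depended on the method. With limma on log2 ratios, or with the prior spread taken from all starts, none of the starts of the genome was called. In these fits 14 and 12 of the 19 had an unadjusted p under 0.05, but the share of all starts under that threshold was not counted. The distal Lck start was not called without the male T file (47.2 points, adjusted p = 0.0689, quasi-binomial test), and the Txk start was not called without the female T, male B or male T file (27.5 to 30.7 points, adjusted p 0.0534 to 0.229, quasi-binomial test), so that these differences stayed close to the 47.7 and 29.1 points over all files.

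The share of CpGs in the sequence differed between these starts. RefSeq promoters of GRCm38 (300 bases around the start) matched all 8 genes, with 13 promoters. Prkcq and Fyn held 37 and 31 CpGs, above the upper quartile of 20 over all 32851 promoters. Lat held 10. Zap70 held 5 to 9 in its 3 promoters, Lck 7 and 5, Txk 4 and 4, Themis 1 and 2, and Lcp2 0, where the median of all promoters was 7. The 4 genes with called promoters held at most 9, but so did Lcp2, which was not called.

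Letters of 6 binding motifs were searched on both strands of the 13 promoters. The RUNX letters TGTGGT were in 4 of the 13 promoters, and in 16.8% of all. The TCF/LEF letters CTTTGA were likewise in 4 of the 13, and in 16.0% of all. The ETS letters CCGGAA, which contain a CpG, were in the Zap70 promoter alone of the 13, and in 14.9% of all. The GATA letters AGATAA were in 2 promoters (11.2% of all), the E-box letters CAGCTG in 1 (16.3%) and the TATA letters TATAAA in none (13.6%). Matches of different strings may overlap, and a match is only a description of the sequence. The CpG within the ETS letters of Zap70, 88 bases before the start, stood at 82.9% in B and 0 in T cells (up to 5.77% allowed).

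Downstream of the start, all 8 genes shared a pattern. The low stretch was measured as the number of bases from the start to the first 2 consecutive CpGs at 50% or more. It reached further downstream in T than in B cells at 8 of 8 genes, and by 500 bp or more at 7, with Fyn as the exception; with 10 reads per CpG it did so at all 8, against 4.13% of all promoters. Over all 21082 promoters it was longer in T cells at 14.6% and longer in B cells at 15.6%, and longer in T cells by 500 bp or more at 3.63%. The median of T minus B was 1727.5 bp for the 8 genes and 0 for all promoters. Upstream of the start the low stretch was likewise longer in T cells at 6 of 8 genes, against 11.5% of all promoters.

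The extension was present whether or not the start itself differed. For Lcp2 the low stretch after the start was 1197 bp in B and 4942 bp in T cells, the longest of the 8 in T cells. For Prkcq it was 2120 bp in B and 4260 bp in T cells, and for Lat 1141 bp in B and 2199 bp in T cells. For Fyn it was 3065 bp in B and 3254 bp in T cells. At the 4 genes with a called promoter the B stretch was under 200 bp, with 54 bp against 2355 bp for Themis, 19 bp against 897 bp for Zap70, 80 bp against 1395 bp for Txk and 193 bp against 2374 bp for Lck. For Zap70 and Themis the B value is only the distance to the next CpG, because these starts were not low in B cells. The CpG at the Zap70 start stood at 63.0% in B cells, and the one 3 bases before the Themis start at 63.6%. There the longer T stretch reflects the difference at the start itself.

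**Figure D3:**
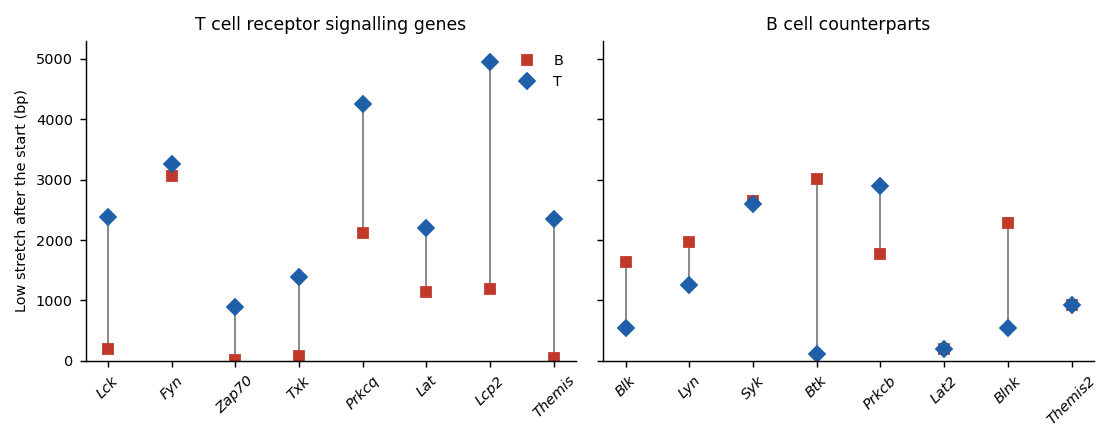
Length in bp (vertical axis) of the stretch after the first start before the first 2 consecutive CpGs at 50% or more, red squares for B and blue diamonds for T cells (reads of both sexes summed), in the 8 genes (left) and their B cell counterparts (right). The T value is the larger in 8 of 8 genes on the left, and the B value in 5 of 8 on the right.

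The counterparts that B cells use went the other way in part. Of the 8 genes Blk and Lyn (Src family), Syk, Btk, Prkcb, Lat2, Blnk and Themis2, the low stretch after the start was longer in B cells at 5, equal at 2 and longer in T cells at 1 (Prkcb). Their promoters were called lower in B cells at 3 of 8 (Blnk, Blk and Lat2) and higher at none, where 0.432% of all promoters were called lower. Blnk, the B cell adaptor related to Lcp2, stood at 12.6% in female B and 9.71% in male B cells, and at 56.9% and 62.5% in the T files. Btk is X-linked, so that female levels include the inactive X chromosome.

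Along the genes, windows of 1 kb with 3 or more CpGs were tested. In the main quasi-binomial test their p-values rest on read counts under a dispersion shared by all windows, not on a window's spread between files. Of the 788 windows in the 8 regions 139 (17.6%) were called between B and T cells, 126 higher and 13 lower in B cells. Genome-wide 2.08% of windows were called, 1.16% higher and 0.913% lower in B cells. Each of the 139 had the same sign in both sexes, which a call on the mean of the same 2 differences makes likely beforehand. Most were intronic: 110 of 592 intronic windows were called, 99 higher and 11 lower in B cells, where 2.89% of all intronic windows were called. By direction the genome-wide intronic shares were 1.71% higher and 1.19% lower in B cells. Of 31 windows within 1 kb of a start 12 were called, all higher in B cells, where 2.49% were called genome-wide (1.29% higher, 1.19% lower). None of 16 exonic windows was called in the quasi-binomial test, and they ranged from -7.87 to 13.3 points; genome-wide 2.47% were called (1.34% higher, 1.13% lower). Of windows outside the genes, 8 of 67 upstream and 9 of 82 downstream were called, where 1.46% of all windows outside protein-coding genes were called (0.764% higher, 0.692% lower). The flanks counted here take in parts of neighbouring genes such as Hdac1 and Tmem131. The share of 1.46% leaves such genes out, so the sets differ. The median over all 788 windows was 1.43 points, against a genome-wide median of 0.0489 points. No window of the genome was called when the prior spread was taken from all windows. There 317 of the 788 had an unadjusted p under 0.05, but the genome-wide share under that threshold was not counted. Limma on log2 ratios called 110 of the 788, and 20613 of the 2018320 windows of the genome.

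**Figure D4:**
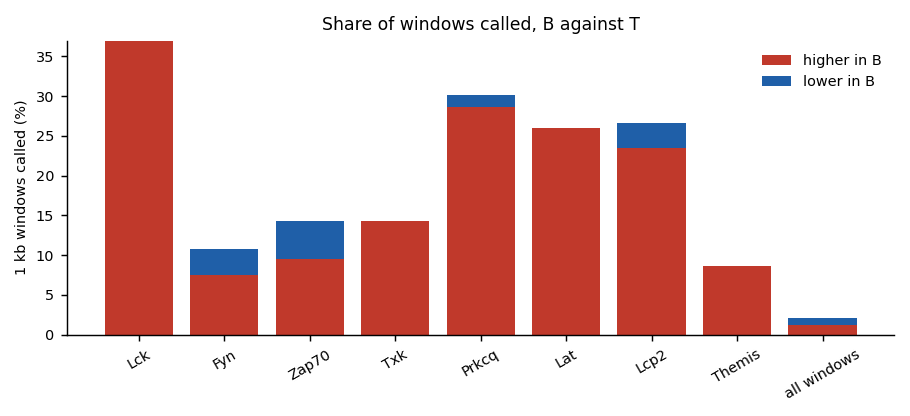
Percentage of 1 kb windows called between B and T cells (vertical axis) for each gene with 10 kb on either side, and for all windows of the genome, stacked as higher in B (red) and lower in B (blue). Lck and Prkcq have the highest bars, and the bar for the genome stands at 2.08%.

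Lck had the largest share of called windows, 17 of 46, and Prkcq the largest number, 43 of 143. Lcp2 had 17 of 64, Lat 7 of 27, Fyn 23 of 214, Themis 15 of 175, Txk 11 of 77 and Zap70 6 of 42. The smallest share, 8.57% in Themis, was still above the genome's 2.08%.

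**Figure D5:**
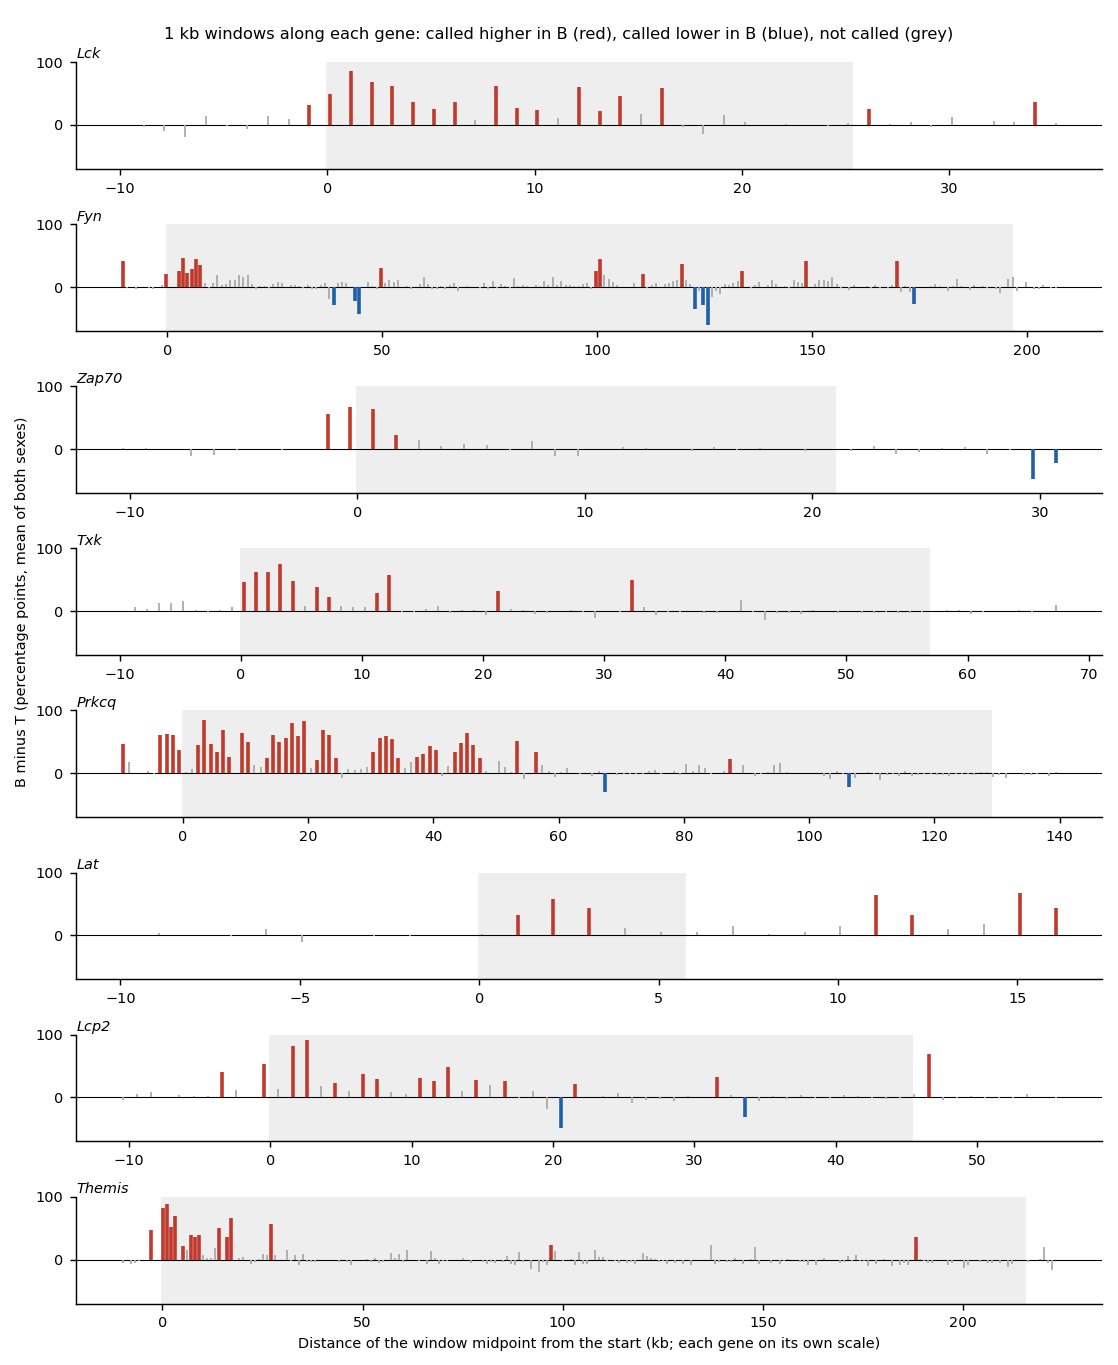
Difference of B minus T cells (percentage points, mean of both sexes, vertical axis) of each 1 kb window against its distance from the first start in kb (horizontal axis, own scale per gene; gene body shaded), red where called higher in B, blue where called lower and grey where not called. In Prkcq 28 of the red bars lie in the first part of 3 of the gene body; 7 of the 13 blue bars are in Fyn.

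With each gene body divided into 3 equal parts, 76 of 217 windows of the first part were called higher in B cells, 24 of 208 of the second and 6 of 207 of the last. Over all protein-coding genes these shares were 2.04%, 1.65% and 1.36%, so the share fell along the gene there as well. Prkcq had 28 of 42 in its first part and 1 of 42 in its last. Themis had 12 of 58 and 1 of 50, although it is the longest of the genes at 215459 bp. Fyn had 7 of 65, 4 of 64 and 3 of 65 higher in B cells, and 3, 3 and 1 windows of the same parts were called lower.

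Prkcq encodes the T cell isoform of protein kinase C, and it had the largest number of called intronic windows, 38 of 118. Genome-wide 2.89% of intronic windows were called. The window at chr2:11175001-11176000 stood at 97.4% in female B and 95.7% in male B cells, and at 13.1% and 11.4% in the T files (adjusted p = 2.12e-115, quasi-binomial test). The windows at chr2:11189001-11190000 and chr2:11191001-11192000 differed by 80.4 and 83.5 points. Over all intronic CpGs of the gene the level was 86.5% and 86.9% in the B files and 70.8% and 70.5% in the T files. Upstream of the start 4 of 8 windows were called as well, where 2.08% of all windows of the genome were called. Runs of 4 or more consecutive CpGs, each at least 30 points apart in 1 direction and at most 500 bp from the next, show the extent to the base: Prkcq held 25 of the 82 runs, 24 of them higher in B cells. The longest run of all genes, 2099 bp with 21 CpGs, lay here at chr2:11174228-11176326.

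Short elements could be read base by base, and 4 intronic runs are printed because they are compact and hold the widest gaps. The sequence (GRCm38, strand of the gene, 5′ to 3′, CpGs in capitals) extends 2 or 3 bases beyond the first and the last CpG of the run.
Prkcq, chr2:11205827-11205892: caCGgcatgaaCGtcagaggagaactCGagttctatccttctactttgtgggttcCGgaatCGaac
Txk, chr5:72750394-72750517: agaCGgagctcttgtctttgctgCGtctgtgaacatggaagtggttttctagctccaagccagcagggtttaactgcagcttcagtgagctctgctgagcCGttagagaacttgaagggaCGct
Lcp2, chr11:34059142-34059225: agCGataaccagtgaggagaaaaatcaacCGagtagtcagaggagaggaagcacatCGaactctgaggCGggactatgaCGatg
Lck, chr4:129565253-129565506: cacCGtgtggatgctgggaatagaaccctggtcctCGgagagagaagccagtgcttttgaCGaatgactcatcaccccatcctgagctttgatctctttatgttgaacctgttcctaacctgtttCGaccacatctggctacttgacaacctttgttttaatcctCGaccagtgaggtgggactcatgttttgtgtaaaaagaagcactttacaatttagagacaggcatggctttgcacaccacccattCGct
The 5 CpGs of the Prkcq element, 33.7 kb into the gene, stood at 94.2% in female B and 89.9% in male B cells, and at 0 of 159 and 0 of 112 reads in T cells, which allows up to 1.89% and 2.68%. The 4 CpGs of the Txk element stood at 93.5% and 96.5% in B cells and at 0 of 120 and 0 of 88 reads in T cells, which allows up to 2.50% and 3.41%. Among protein-coding transcripts of Txk it is intronic, and a transcript annotated as a retained intron covers it. The 5 CpGs of the Lcp2 element stood at 94.7% and 93.2% in B cells and 6.06% and 0 (up to 2.56% allowed) in T cells. The 6 CpGs of the Lck element stood at 96.9% and 92.7% in B cells and 0.680% and 1.67% in T cells. These values chose the elements and carry no test of their own.

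With the gene body in 3 equal parts, Lck had 8 of 9 windows called in the first, 6 of 8 in the second and 0 of 9 in the last, all higher in B cells. Over all protein-coding genes 2.04%, 1.65% and 1.36% of such windows were called higher in B cells. The proximal Lck start lies 15250 bp after the distal one. The window at chr4:129572001-129573000 stood at 93.2% in female B and 89.3% in male B cells, and at 5.41% and 5.20% in the T files (adjusted p = 8.89e-149, quasi-binomial test). The intronic level was 83.9% and 85.3% in the B files and 57.3% and 57.0% in the T files. A run of 15 CpGs (1005 bp) lay just after the proximal start, at 93.7% and 92.0% in the B files and 16.2% and 8.43% in the T files, and Mir8119 overlaps it. Downstream of the gene a run of 4 CpGs overlapping the neighbour Hdac1 stood at 85.7% and 88.2% against 11.1% and 18.0%.

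Lcp2 and Lat, the adaptors on which the cascade assembles, had starts that were low in both cell types and large differences just behind them. The Lcp2 window at chr11:34049001-34050000, intronic, stood at 90.8% in female B and 92.0% in male B cells and held no methylated read in T cells (0 of 136 and 0 of 114 reads, which allow up to 2.21% and 2.63%; adjusted p = 4.91e-93, quasi-binomial test). The window before it stood at 81.1% and 83.7% in B cells and again at 0 in T cells, which allows up to 2.61% and 2.38%. The antisense gene 4930469K13Rik overlaps all named Lcp2 windows, so that these positions belong to both. The Lat window at chr7:126367001-126368000, which Mir7058 overlaps, stood at 94.7% in both B files against 32.8% and 39.7% in T cells. Lat had the largest intronic difference of the 8, 91.8% and 91.5% in the B files and 41.4% and 50.5% in the T files, over only 57 CpGs. Downstream of Lat 4 of 11 windows were called, where 2.08% of all windows of the genome were called. The window at chr7:126354001-126355000 stood at 78.7% and 82.5% in the B files and 16.1% and 10.4% in the T files.

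Themis and Txk followed the start with a short series of called windows. The Themis window at chr10:28669001-28670000 stood at 96.8% in female B and 94.5% in male B cells, and at 12.5% and 2.70% in the T files, although on 31 to 55 reads a file. The gene's intronic level differed by only 2.26 points, the smallest of the 8. The Txk window at chr5:72749001-72750000 stood at 94.0% and 92.2% in the B files and 18.6% and 17.4% in the T files. Neither gene had a window called lower in B cells.

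Zap70 was compact, with 4 of 42 windows called higher in B cells, where 1.16% of all windows of the genome were. The midpoints of the 4 lay from -1298 to 1702 bp from the start. The window at chr1:36761001-36762000 stood at 84.3% in female B and 85.3% in male B cells, and at 18.1% and 16.3% in the T files. Its intronic level differed by 5.19 points. Over all intronic CpGs of the 8 genes the level was 87.9% and 87.7% in B cells and 79.3% and 79.5% in T cells, a mean difference of 8.35 points with an SD of 0.291 points over the 2 sexes.

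In the opposite direction, 13 windows were less methylated in B than in T cells: 7 in Fyn and 2 each in Lcp2, Prkcq and Zap70. They were 13 of 788 windows in all, where 0.913% of the genome's windows were called lower in B cells. By gene they were 7 of 214 in Fyn, 2 of 64 in Lcp2, 2 of 143 in Prkcq and 2 of 42 in Zap70, and the other genes had none. Counts of 2 are too small to read as a result about a gene. Fyn is a kinase used in many tissues. Its window at chr10:39494001-39495000 stood at 15.1% in female B and 18.4% in male B cells, and at 72.9% and 81.6% in the T files, on 38 to 53 reads a file. Its window at chr10:39413001-39414000 stood at 11.2% and 8.00% in the B files and 58.2% and 45.3% in the T files. The Lcp2 window at chr11:34067001-34068000 stood at 37.5% and 33.3% in the B files and 77.6% and 88.9% in the T files. The Prkcq window at chr2:11239001-11240000 stood at 27.2% and 18.9% against 49.0% and 56.5%. With limma on log2 ratios neither Prkcq window was called (adjusted p = 0.153 and 0.122), and the one at chr2:11278001-11279000 was not called without the female T file, where its difference was -19.9 points.

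The reversed run with the largest difference, -84.05 points, lay outside the genes, past the end of Zap70. Downstream of Zap70 the window at chr1:36791001-36792000 stood at 49.6% in female B and 45.03% in male B cells, and at 93.6% and 95.4% in the T files, and the next window overlaps the neighbour Tmem131. A stretch of 300 bases that opens 2 bases before the run there, and the shortest reversed run of Fyn that was near 0 in B cells, are printed to set them beside the elements above (GRCm38, plus strand, CpGs in capitals).
Downstream of Zap70, chr1:36791807-36792106: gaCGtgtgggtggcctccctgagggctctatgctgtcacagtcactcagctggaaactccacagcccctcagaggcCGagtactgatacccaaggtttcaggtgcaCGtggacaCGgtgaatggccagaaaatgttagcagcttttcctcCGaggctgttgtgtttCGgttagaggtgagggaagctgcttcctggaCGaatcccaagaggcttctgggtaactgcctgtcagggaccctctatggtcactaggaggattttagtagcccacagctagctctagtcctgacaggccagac
Fyn, chr10:39412955-39413033: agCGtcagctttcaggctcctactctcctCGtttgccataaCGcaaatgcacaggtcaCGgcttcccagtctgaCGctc
The 7 CpGs of the first stood at 6.45% in female B and 6.82% in male B cells, and at 95.7% and 95.2% in the T files. The whole run of 8 CpGs extends past the printed bases and was higher in B cells, at 10.8% in females and 12.4% in males. The 5 CpGs of the Fyn element stood at 0 (up to 3.16% allowed) and 0.699% in B cells, and at 42.7% and 48.1% in T cells, so T cells were intermediate there and not fully methylated.

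Female and male cells were compared in the same windows. None of the 788 windows was called between female and male cells in the quasi-binomial test, and none with limma on log2 ratios or Fisher's exact test. At an unadjusted p under 0.05 there were 51 windows in the quasi-binomial test, 30 with limma and 3 with Fisher's exact test, where 4.73% of the genome's autosomal windows passed the same unadjusted threshold in the quasi-binomial test and 0.00103% were called. The lowest adjusted p was 0.606, for the window at chr1:36760001-36761000, upstream of Zap70.

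Other genes of the pathway were read at their promoters. Of 12 receptor and coreceptor genes 10 were called higher in B cells and none lower, with a median of 52.3 points, where 0.484% of all promoters were called higher and 0.432% lower. Cd3d, Cd3g, Cd247 and Cd3e, which form the signalling chains of the receptor, stood at 83.0 to 95.5% in the B files and at 1.87 to 8.33% in the T files. Of 24 downstream kinases, adaptors and effectors 4 were called higher in B cells, with a median of 2.12 points. Among them, the adaptor Trat1 stood at 85.5% and 86.5% in the B files and 27.3% and 32.7% in the T files, and Skap1 and the X-linked Sh2d1a were called too. Of 16 negative regulators 1, Sla2, was called, with a median of 0.3503 points. No test compared one list with another.

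Among all other promoters, those with levels nearest to a called gene in the 4 files were found by the largest of the 4 absolute differences. For Themis they were Cd247 and Cd3e, within 2.73 and 4.29 points in every file. For Lck they were Cd4 and Gimap3, within 3.14 and 5.90 points, for Zap70 Fasl and Trat1, within 5.96 and 6.43 points, and for Txk Kcnk7 and Tnp2, within 6.25 and 7.65 points. The 4 files share their libraries across genes, and the likeness is over 4 values.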

How the data were processed

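Splenic B and naive CD4+ T cells of both sexes were profiled by whole-genome bisulfite sequencing. The submitters' processing notes name Trim Galore, FastQC, Bismark 0.13.1 and mm10, without settings. The files deposited by the authors give for each CpG the methylated fraction and the coverage as counts of reads, with both strands on 1 row and no row under 5 reads. Positions were counted from 0 and were shifted to 1-based GRCm38 coordinates, and genes are from GENCODE M21. Methylated reads were recovered as fraction times coverage, and CpGs with 5 or more reads in all 4 files were kept.

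For every window, promoter and start of the genome, a quasi-binomial logistic model with terms for cell type and sex (1 residual degree of freedom) was fitted in Python 3.11.15. Its dispersion was squeezed with limma 3.58.1 in R 4.3.3, with a prior from features with 5 or more expected methylated and unmethylated reads in every file, and p-values were adjusted by the Benjamini-Hochberg method. For windows the prior had infinite degrees of freedom, so every window took the same genome-wide dispersion of 1.31. A window's own spread between files had no weight, and its p-value rests on read counts under that dispersion. For promoters and starts the adjusted p-values draw in part on the spread between files, which may be technical. Starts less than 100 bp apart were joined. Intronic levels, runs and low stretches are descriptions.

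Named windows are up to 3 called per gene and direction ranked by the weaker of the female and male differences, beside all promoters and starts, up to 4 genes per list, and the 2 promoters nearest to each called gene. The genes, lists and rules were chosen with earlier results of these data known. The alternatives were a minimum of 10 reads, no minimum of CpGs, no sex term, differences of 10 and 30 points, another prior, limma on log2 ratios of methylated to unmethylated reads (pseudocount 1), Fisher's exact test, smaller windows and leaving out each file. The limit given beside a level of 0 is the share that 3 methylated reads would make; such limits and the 95% Wilson intervals cover counting error only. The values of 1 promoter of these lists are not reported here.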

Additional observations from a re-analysis of the deposited data

Results flagged for a closer look

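Among the promoters and transcript starts of the 8 genes, B minus T had opposite signs in females and males at 3, and the difference between the sexes was not tested. At the Lat promoter B minus T was 1.09 in females and -1.82 in males, in percentage points, so that the female value lay 2.91 points above the male one. At the Fyn start Fyn-207 the female value was -0.177 and the male value 2.44 points, a female minus male difference of -2.61 points. At the start Fyn-206 these values were -0.105 and 0.606 points, a difference of -0.712 points. None of the 3 was called between B and T cells.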

How the results depend on the processing

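The count of 139 of 788 windows called between B and T cells became 210 at a threshold of 10 points, 224 of 1172 in windows of 500 bp and 0 with the prior spread taken from all windows; it was 138 to 144 with any 1 of the 4 files left out and within 1.5 times of 139 under the other alternatives. Fits without a file had no sex term and 1 residual degree of freedom, which comes from the cell type with both files, so the lone file was assumed to vary alike; for windows the spread was the genome-wide average, so the count of windows had little room to move. The 5 called starts became 8 at 10 points, 0 with the prior from all starts and 0 with limma, and 3 to 6 with a file left out. The lowest, 3, was without the male T file. At an unadjusted p under 0.05 these fits held 317 of 788 windows, 12 of 19 starts (prior) and 14 of 19 starts (limma). The genome-wide shares under that threshold in these fits were not counted, and the cause was not tested. The 4 called promoters were 3 to 5 under all alternatives, and the Txk promoter was the one lost. The mean intronic difference of 8.35 points was 8.67 points with 10 reads per CpG. Of 48 repeats of the single genes' intronic differences 5 moved by more than their SD, in Lck (27.5 points, 29.98 with 10 reads per CpG and 24.4 as a mean over CpGs), Prkcq and Txk. The count of sex calls was 0 under all alternatives, including the leaving out of each file, which was added after seeing the data. So were the alternatives for runs (82, and 64 with 10 reads per CpG) and low stretches (longer in T cells by 500 bp or more at 7 of 8 genes, and at 8 of 8 with 10 reads per CpG). None of the named windows, promoters or starts changed direction past the threshold. Genome-wide, 41929 called windows became 84621 at 10 points, 21016 at 30 points, 20613 with limma and 73162 in windows of 500 bp; 193 promoters became 424 and 102 at these thresholds and 34 to 53 with a file left out; 757 starts became 1469, 371 and 96 to 564. Of 291 repeats over 33 named windows 36 lost their call, 33 of them under the prior from all windows. The sex term already matched B and T files within sex, and without it the Txk promoter had an adjusted p of 0.0466 (quasi-binomial test) in place of 0.00446. No paired analysis was possible by replicate number because no 2 groups share one in the labels. Depth limited single CpGs, with means of 12.6 to 20.2 reads by gene and file and a minimum of 5, and named windows, where 95% Wilson intervals reached up to 13.2 points to either side.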

Other observations

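Some called windows and runs lay in the 10 kb on either side of the genes. Upstream of the start, 8 of 67 windows were called, all higher in B cells, 4 of them before Prkcq. After the end of the genes 9 of 82 were called, 7 higher and 2 lower in B cells. Of all windows of the genome 2.08% were called, 1.16% higher and 0.913% lower in B cells. Past the end of Lcp2 a run of 7 CpGs stood at 94.6% in female B and 95.1% in male B cells against 26.5% and 26.1% in T cells. Centred at -3027 bp from the Themis start, a run of 5 CpGs stood at 83.5% and 94.6% in the B files and 8.89% and 9.68% in the T files.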
